A study of Arabidopsis thaliana with 12 samples.

Results

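The UDP-glycosyltransferases (UGTs) of Arabidopsis thaliana are described here through 50 genes, each read by a single probe set, out of 13356 genes to which the array annotation gives an unshared probe set. A gene was taken when its symbol or a synonym in the gene annotation had the form UGT, 2 digits, a letter and a number, and when its probe set listed no other gene. UGT74B1, a gene of glucosinolate synthesis, and AT2G31790 were left out by definition. Of 64 genes with such a name, 4 shared their probe sets with other genes and 9 had no probe set listed in the annotation used here, and these are not analysed. Among them are UGT84A2, UGT74E2, UGT74F2, UGT85A1, UGT73C5 and UGT73C6. The 50 genes fall into 12 families by the first number of their name and 22 subfamilies by number and letter.

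RNA came from hypocotyls, the seedling stems, of ecotype Col-0 grown in full-strength MS medium, and was hybridised to 12 Affymetrix arrays. Young hypocotyls were 7 days old and mature hypocotyls 35 days old. At each age 3 arrays are labelled as biological replicates without auxin and 3 as biological replicates with auxin for 1 day, which gives 4 groups. The labels name neither the auxin nor its dose, and they are silent on how long the untreated hypocotyls were kept and on how many plants were pooled. The study's title is about callus, a mass of dividing cells that forms under auxin, and how the ability to make it changes with age.

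UGTs move a sugar from a UDP-sugar, most often UDP-glucose, to a small molecule. Their acceptors include hormones such as auxin, cytokinin, abscisic acid and salicylate, as well as phenylpropanoids, monolignols, flavonoids, sterols and foreign chemicals. The sugar conjugates are more soluble, are often inactive or stored in the vacuole, and in many cases can be hydrolysed again. The family number reflects similarity of protein sequence, not the acceptor.

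Values are RMA values, read as log2, that the authors deposited with every probe set centred on its median over the 12 arrays. A value of 1 therefore means that the signal was double that gene's own median, and no gene's level can be set against another's. For the same reason, hypocotyl markers cannot show whether the tissue label holds. Differences were tested with limma over all 22746 non-control probe sets, and a gene was called at a Benjamini-Hochberg adjusted p under 0.05. Each log2 fold change is given ± its standard error (SE) from that fit, with n = 3 arrays per group unless arrays are left out. Fits without the 4 arrays of low bioC signal, named below, keep 1 array in each untreated group. Their SE therefore holds no spread between untreated arrays.

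Some control signals moved with the treatment. The bioC spike-in, a bacterial control transcript, lay between −1.61 and −1.43 on arrays 1 and 2 of both untreated groups and between −0.20 and 0.70 on the other 8 arrays. The 25S ribosomal RNA control lay between −2.56 and −1.06 on untreated and between 1.06 and 2.5 on auxin arrays. The 3′ over 5′ difference of GAPDH lay between 0.13 and 0.51 on untreated and between −0.18 and 0.03 on auxin arrays. Of 6 genes fixed as markers of green tissue 5 were measured (LHCB4.2, PRK, PSAN, CHLM and PORB), and their mean value lay between 3.98 and 4.17 in young, −2.84 and −2.51 in young with auxin, 2.21 and 2.80 in mature, and −2.65 and −2.35 in mature hypocotyls with auxin. Of 4 periderm and suberin markers 2 were measured, FACT and the GDSL lipase gene AT2G23540. Their mean lay between −3.42 and −2.60, −1.29 and −0.80, 1.47 and 1.53, and 0.86 and 1.12 in the same order. With auxin in young hypocotyls the GDSL lipase gene rose by 3.64 ± 0.35 and FACT by 0.29 ± 0.11. Among auxin arrays FACT was 3.83 ± 0.11 higher in mature hypocotyls, and the GDSL lipase gene differed by 0.34 ± 0.35. The 7 xylem and 3 phloem markers had no probe set of their own listed here. Their part, and that of the control signals, in the results below was not tested. Fits without the 4 arrays of low bioC signal, given below, show only how far a result depends on those arrays. In whole hypocotyls a lower signal from fewer cells of a type cannot be told apart from less RNA per cell.

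Across the 12 arrays the UGTs varied about as much as other genes. The median standard deviation of a UGT over the arrays was 0.39 on the log2 scale, with a range from 0.09 to 1.97, against a median of 0.33 for all probe sets. In 39 of the 50 genes at least 1 of the 5 comparisons was called, beside 75.6% of all probe sets. The other 11 were called in none, namely UGT71B8, UGT72E3, UGT73C2, UGT76E1, UGT78D3, UGT79B1, UGT79B6, UGT84B1, UGT84B2, UGT85A3 and UGT85A7. The plot of all values shows these as nearly white rows.

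**Figure D1:**
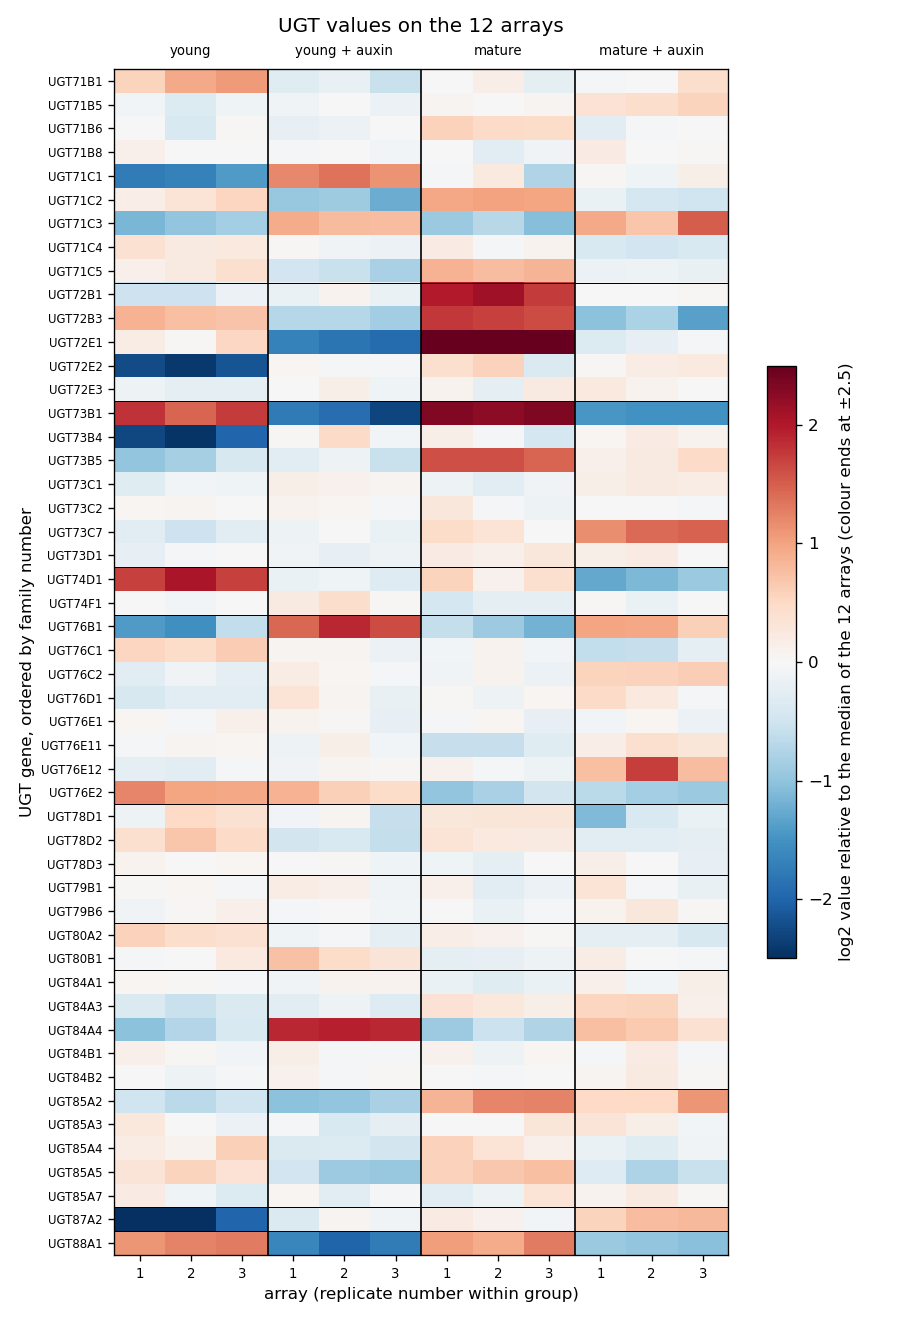
Each row is one of the 50 UGT genes, ordered by family with lines between families, and each column is 1 of the 12 arrays. Colour gives the log2 value relative to the gene's median over the arrays, red for higher and blue for lower. UGT72E2, UGT73B4 and UGT87A2 are dark blue only on the 3 untreated young arrays, and UGT72B1 and UGT72E1 dark red on the 3 untreated mature arrays.

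The first question was what auxin did to UGT genes in young hypocotyls. UGT76B1, UGT71C1 and UGT84A4 rose the most and UGT73B1, UGT88A1 and UGT72E1 fell the most. In all, 13 of the 50 genes rose and 16 fell, with fold changes from −3.66 to 2.84 on the log2 scale. These 29 calls are 58.0% of the UGTs, beside 59.1% of all probe sets (32.7% higher and 26.4% lower), so the share called was close to the background. The median absolute log2 fold change was 0.39 for the UGTs and 0.39 for all probe sets. Without the 4 arrays of low bioC signal, 21 of the 50 were called, 7 higher and 14 lower, beside 50.2% of all probe sets in that fit (27.4% higher and 22.8% lower). The arrays of both groups did not overlap in 31 of the 50 UGTs, or in 64.5% of all probe sets.

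UGT76B1 (AT3G11340) glucosylates immune signals, among them isoleucic acid, N-hydroxypipecolic acid and salicylate. Its values were −1.42, −1.54 and −0.61 on the untreated young arrays and 1.44, 1.88 and 1.63 with auxin. All 3 auxin arrays lay above all 3 untreated ones, and untreated array 3 lay highest of its group. The gene was 7.16-fold higher with auxin (log2 fold change 2.84 ± 0.22 SE, limma adjusted p = 5.1e-08).

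UGT84A4 (AT4G15500) makes glucose esters of hydroxycinnamic acids. It had −1.02, −0.74 and −0.39 on the untreated young arrays against 1.89, 1.94 and 1.89 with auxin. The groups were far apart, and the gene was 6.16-fold higher (2.62 ± 0.15, limma adjusted p = 1.6e-09). UGT71C3 (AT1G07260), which glucosylates methyl salicylate, had −1.14, −0.99 and −0.84 untreated and 0.92, 0.79 and 0.78 with auxin. It was 3.53-fold higher, again without overlap (1.82 ± 0.17, limma adjusted p = 3.1e-07).

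UGT73B1 (AT4G34138), of a subfamily known for stress and pathogen responses, fell more than any other UGT. Its values were 1.81, 1.46 and 1.75 untreated and −1.76, −1.90 and −2.30 with auxin, a 12.6-fold difference (−3.66 ± 0.13, limma adjusted p = 1.3e-11). UGT88A1 (AT3G16520) went from 1.11, 1.24 and 1.29 to −1.63, −2.01 and −1.75, and was 8.03-fold lower (−3.0 ± 0.11, limma adjusted p = 3.1e-11). In both genes the groups were separated by more than 2 log2 units. UGT72E1 (AT3G50740), which glucosylates coniferyl aldehyde, a lignin precursor, had 0.19, 0.03 and 0.52 untreated and −1.69, −1.83 and −1.93 with auxin (4.17-fold lower, −2.06 ± 0.12).

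In mature hypocotyls auxin raised UGT71C3, UGT76B1 and UGT84A4 the most and lowered UGT73B1, UGT72E1 and UGT72B3 the most. Of the 50 genes 12 rose and 18 fell, which is 60.0% called beside 59.9% of all probe sets (31.8% higher and 28.1% lower). Without the 4 arrays of low bioC signal 26 were called, 12 higher and 14 lower, beside 50.6% of all probe sets (26.5% higher and 24.1% lower). The groups did not overlap in 32 of the 50 UGTs, beside 64.5% of all probe sets. UGT73B1 went from 2.31, 2.24 and 2.34 to −1.46, −1.51 and −1.52 and was 13.9-fold lower (−3.79 ± 0.13, limma adjusted p = 1.5e-11). UGT72B3 (AT1G01420), a close relative of UGT72B1, went from 1.76, 1.71 and 1.63 to −1.03, −0.80 and −1.35 (6.79-fold lower, −2.76 ± 0.12). Neither gene had an auxin array within the range of its untreated ones.

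The young and mature auxin comparisons share no array. Of the 29 UGTs called in young hypocotyls, 20 were called in the same direction in mature ones: 6 rose and 14 fell at both ages. Over all probe sets called in young hypocotyls this share was 74.8%. The 6 are UGT71C3, UGT73C1, UGT76B1, UGT76C2, UGT84A4 and UGT87A2. The 14 are UGT71C2, UGT71C4, UGT71C5, UGT72B3, UGT72E1, UGT73B1, UGT74D1, UGT76C1, UGT78D2, UGT80A2, UGT85A2, UGT85A4, UGT85A5 and UGT88A1. UGT72B1 and UGT73B5 were called higher in young and lower in mature hypocotyls, although their young rises were small. That of UGT73B5 (0.43 ± 0.15, limma adjusted p = 0.0237) was lost without array 1 or 2 of either young group or with the low-bioC arrays left out (limma adjusted p between 0.0616 and 0.741). The young rise of UGT73C1 (0.27 ± 0.08) was lost without array 1 of the untreated group (0.20, limma adjusted p = 0.067). With the low-bioC arrays left out, its rise was 0.22 in young and 0.27 in mature hypocotyls, neither called (limma adjusted p = 0.125 and 0.0663). The falls of UGT85A2 (−0.38 ± 0.15 and −0.41 ± 0.15) were lost in 6 alternative fits in young and 5 in mature hypocotyls, with arrays of each auxin and untreated group among those whose removal ended them. Another 13 UGTs were called at neither age.

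Whether auxin acted differently at the 2 ages was tested directly, and the difference was called for 19 of the 50 UGTs, 8 with a higher and 11 with a lower mature response. That is 38.0%, beside 35.0% of all probe sets (17.5% in either direction). With the 4 low-bioC arrays left out, 12 genes were called, 4 higher and 8 lower, beside 19.1% of all probe sets (10.0% higher and 9.06% lower). UGT71C3 and UGT73B1 responded by similar amounts at both ages, with differences of 0.12 ± 0.24 (limma adjusted p = 0.75) and −0.13 ± 0.18 (limma adjusted p = 0.621), where the SE leaves room for smaller differences. UGT84A4 rose less in mature hypocotyls, from −0.90, −0.54 and −0.75 to 0.76, 0.66 and 0.39 (difference −1.30 ± 0.21, limma adjusted p = 2.5e-04). UGT88A1 fell less, from 1.05, 0.92 and 1.29 to −0.92, −0.98 and −1.04 (0.94 ± 0.16, limma adjusted p = 4.2e-04). UGT76B1 rose less in mature hypocotyls with all arrays (difference −1.09 ± 0.31, limma adjusted p = 0.0144). Without the 4 arrays of low bioC signal its difference was −0.22 ± 0.28. That fit keeps only array 3 of each untreated group, and the gene's value on untreated young array 3 (−0.61) was the highest of its group. Whether the shift comes from the arrays left out or from those kept was not tested.

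**Figure D2:**
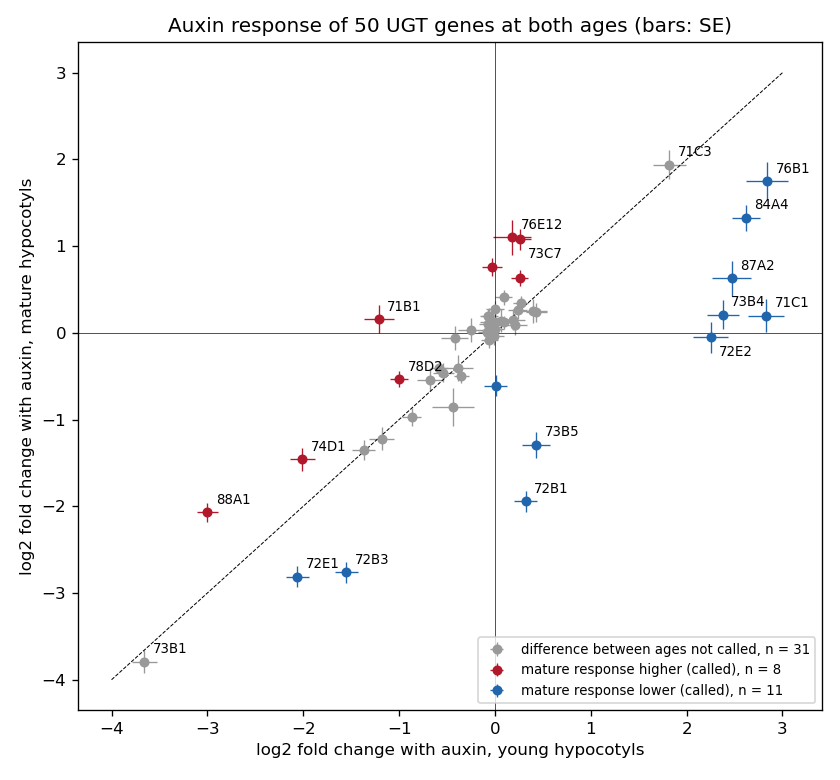
Each point is 1 of the 50 UGT genes, with its log2 fold change with auxin in young hypocotyls on the x axis and in mature hypocotyls on the y axis, bars for the SE and a dashed line of equal response. Red and blue mark the 8 genes with a higher and the 11 with a lower mature response by the called difference, and grey the other 31. UGT71C3 and UGT73B1 lie on the line, UGT71C1, UGT72E2 and UGT73B4 lie far right with mature values near 0, and UGT72B1 and UGT73B5 lie below 0 on the y axis.

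A set of genes was low in untreated young hypocotyls and higher in the other 3 groups. UGT87A2 (AT2G30140), known for roles in flowering time and in tolerance of abiotic stress, had −2.93, −2.87 and −1.99 on the untreated young arrays. It had −0.37, 0.07 and −0.08 in young hypocotyls with auxin, 0.21, 0.11 and −0.07 in mature ones, and 0.55, 0.77 and 0.81 in mature ones with auxin. The untreated young arrays lay below all others. The gene was 5.55-fold higher with auxin in young (2.47 ± 0.20, limma adjusted p = 9.4e-08) and 1.55-fold in mature hypocotyls (0.63 ± 0.20, limma adjusted p = 0.0157). Leaving out untreated mature array 3 ended that second call (0.55, limma adjusted p = 0.0566). The difference between ages was −1.84 ± 0.29 (limma adjusted p = 2.1e-04), or −1.08 ± 0.25 with the low-bioC arrays left out.

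UGT72E2 (AT5G66690), the main enzyme that makes the glucosides of coniferyl and sinapyl alcohol, the building blocks of lignin, had −2.23, −2.41 and −2.16 in untreated young hypocotyls. Its other values were 0.04, −0.05 and −0.03 in young hypocotyls with auxin, 0.41, 0.57 and −0.37 in mature ones, and 0.03, 0.19 and 0.25 in mature ones with auxin. The untreated young arrays lay far below all others, and array 3 of the untreated mature group lay below the rest of its group. Auxin raised the gene 4.77-fold in young hypocotyls (2.25 ± 0.18, limma adjusted p = 7.4e-08). In mature hypocotyls the change was −0.05 ± 0.18 (limma adjusted p = 0.842), and the difference between ages was −2.30 ± 0.26 (limma adjusted p = 1.2e-05).

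UGT73B4 (AT2G15490), also of the stress-related 73B subfamily, was likewise lowest in untreated young hypocotyls, at −2.27, −2.45 and −1.98. With auxin its young values were 0.02, 0.48 and −0.06. It had 0.15, −0.02 and −0.43 in mature hypocotyls and 0.05, 0.20 and 0.09 in mature ones with auxin. The gene rose 5.21-fold in young (2.38 ± 0.17, limma adjusted p = 1.9e-08) and was not called in mature hypocotyls (0.21 ± 0.17, limma adjusted p = 0.308). UGT71C1 (AT2G29750), which accepts phenolic compounds, had −1.75, −1.68 and −1.41 in untreated young and 1.2, 1.35 and 1.12 in young hypocotyls with auxin. It had −0.02, 0.24 and −0.76 in mature hypocotyls and 0.02, −0.10 and 0.15 in mature ones with auxin. It rose 7.13-fold in young hypocotyls (2.83 ± 0.19, limma adjusted p = 1.4e-08) with a mature change of 0.20 ± 0.19 (limma adjusted p = 0.403).

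In UGT71C1, UGT72E2 and UGT73B4 alike, array 3 of the untreated mature group was the lowest of its group. Without the 4 arrays of low bioC signal this array alone stands for the group. The 3 genes were then higher with auxin in mature hypocotyls, by 0.78 ± 0.14, 0.52 ± 0.12 and 0.54 ± 0.20. Their difference between ages in that fit was −1.84 ± 0.20, −1.62 ± 0.17 and −1.59 ± 0.28. With only array 3 of the untreated mature group left out, UGT72E2 was instead called lower with auxin in mature hypocotyls. The direction of its mature change thus depended on which untreated arrays were kept. A young rise and a higher untreated mature level both draw on the untreated young arrays, so these results are not independent of each other.

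**Figure D3:**
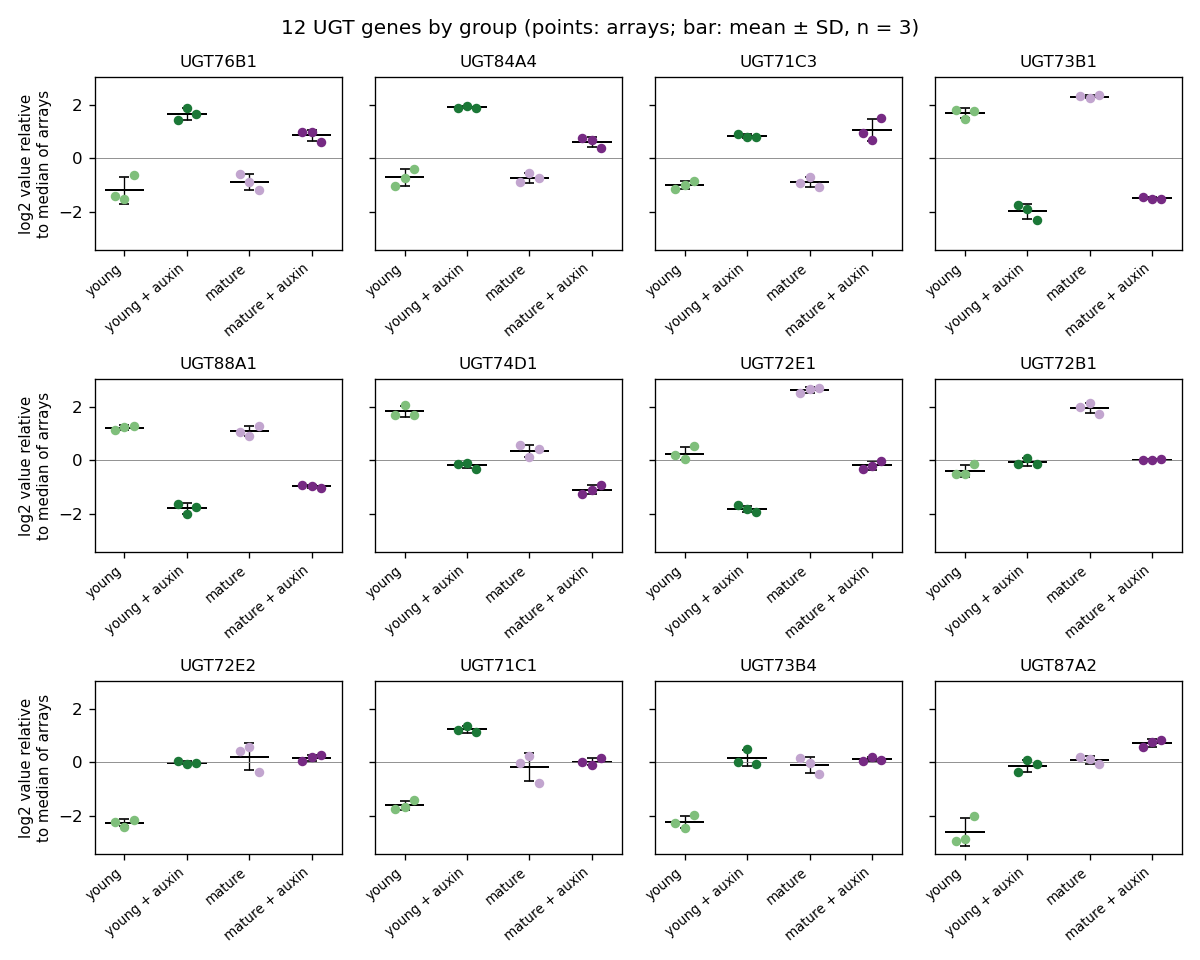
Points are single arrays, with the mean and SD (n = 3) for each of the 4 groups, for 12 UGT genes on the log2 scale relative to the gene's median. The upper row shows UGT76B1, UGT84A4 and UGT71C3 higher with auxin at both ages and UGT73B1 lower, and the lower row shows 4 genes whose untreated young arrays lie below all other arrays.

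Untreated mature hypocotyls were next set against untreated young ones. In family 72, 4 of the 5 genes were higher in mature hypocotyls, and the 5 had a median of 2.34 on the log2 scale, beside a median of −0.03 over all probe sets. In all, 16 UGTs were higher and 9 lower with age, which is 50% called beside 45.7% of all probe sets (22.7% higher and 22.9% lower). Without the 4 arrays of low bioC signal 14 were called, 10 higher and 4 lower, beside 24.5% of all probe sets (11.8% higher and 12.7% lower). All 4 family 72 genes were among the 14. The groups did not overlap in 31 of the 50 UGTs, beside 53.4% of all probe sets. In that fit each untreated group holds 1 array, which is assumed to vary like the auxin groups.

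UGT72E1 had 2.49, 2.66 and 2.70 in untreated mature hypocotyls, against 0.19, 0.03 and 0.52 in young ones, and was 5.18-fold higher (2.37 ± 0.12, limma adjusted p = 3.3e-09). UGT72B1 (AT4G01070), which conjugates foreign chlorinated phenols and anilines as well as monolignols, had 1.99, 2.12 and 1.74 against −0.52, −0.52 and −0.14, a 5.08-fold difference (2.34 ± 0.12, limma adjusted p = 3.2e-09). UGT72E2 was 5.55-fold (2.47 ± 0.18) and UGT72B3 1.90-fold higher with age (0.92 ± 0.12). UGT72E3 (AT5G26310), which acts on sinapyl alcohol, stayed between −0.24 and 0.24 on all 12 arrays and was not called (0.22 ± 0.12, limma adjusted p = 0.141).

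The 4 genes then parted under auxin. UGT72B1 had −0.16, 0.09 and −0.16 in young hypocotyls with auxin. In mature hypocotyls it fell to 0.00, 0.00 and 0.03, 3.83-fold lower (−1.94 ± 0.12, limma adjusted p = 6.1e-09), while in young ones it was 0.32 ± 0.12 higher (limma adjusted p = 0.0374). That small rise was lost without array 1 or 2 of the untreated young group, without array 2 of the young auxin group, with array medians set equal or with the low-bioC arrays left out (limma adjusted p between 0.0639 and 0.732). With auxin, UGT72E1 alone of family 72 was called higher in mature hypocotyls (−0.34, −0.21 and −0.03 against −1.69, −1.83 and −1.93, 3.08-fold, 1.62 ± 0.12). UGT72B1 and UGT72E2 differed by 0.09 ± 0.12 and 0.17 ± 0.18 there (limma adjusted p = 0.685 and 0.579).

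Of the 7 genes of family 73, 5 were called higher with age, beside 22.7% of all probe sets. UGT73B5 (AT2G15480), another stress-responsive gene, had 1.61, 1.62 and 1.45 in mature and −0.99, −0.83 and −0.41 in young untreated hypocotyls (4.93-fold, 2.30 ± 0.15, limma adjusted p = 2.3e-08). With auxin it had −0.28, −0.12 and −0.55 in young and 0.12, 0.22 and 0.47 in mature hypocotyls. Only the untreated mature arrays lay above 1. UGT73B4 was 4.39-fold higher (2.14 ± 0.17) and UGT73C7 (AT3G53160) 1.54-fold (0.62 ± 0.12, limma adjusted p = 8.3e-04), a call that ended without the 4 arrays of low bioC signal (0.27 ± 0.18, limma adjusted p = 0.353). In that fit of 8 arrays UGT73B1 (0.62 ± 0.13 with all arrays) was at 0.59 ± 0.23 and UGT73D1 (0.28 ± 0.09) at 0.29 ± 0.15. These differences were nearly as large but no longer called (limma adjusted p = 0.098 and 0.226). The rise of UGT73D1 was also lost without array 1 of the untreated young or array 3 of the untreated mature group (limma adjusted p = 0.0727 and 0.0632). UGT73C1 (AT2G36750) did not differ with age beyond its error (0.00 ± 0.08), with values between −0.30 and 0.23 on all arrays.

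Of the 8 genes of family 76, none was called higher with age and 3 were called lower, beside 22.7% and 22.9% of all probe sets. One of the 3, UGT76E11 (−0.50 ± 0.10), lost its call with the low-bioC arrays left out (−0.35, limma adjusted p = 0.21). UGT76E2 (AT5G59590) fell the most, from 1.23, 0.99 and 0.96 in young to −0.98, −0.82 and −0.45 in mature untreated hypocotyls. It was 3.51-fold lower (−1.81 ± 0.14, limma adjusted p = 1.5e-07) and still 2.74-fold lower among auxin arrays (−1.45 ± 0.14). UGT71B1 (AT3G21750) had 0.56, 0.95 and 1.07 in young and 0.00, 0.17 and −0.25 in mature hypocotyls (1.85-fold lower, −0.89 ± 0.16, limma adjusted p = 4.4e-04). With auxin it had −0.30, −0.19 and −0.56 in young and −0.03, 0.00 and 0.43 in mature hypocotyls. Auxin thus lowered it in young hypocotyls (−1.21 ± 0.16), its mature change was 0.16 ± 0.16, and the difference was called (1.37 ± 0.23, limma adjusted p = 3.7e-04).

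With auxin the mature and young hypocotyls differed in 24 UGTs, 16 higher and 8 lower in mature ones. This is 48.0% of the UGTs beside 27.3% of all probe sets (14.2% higher and 13.0% lower). Among the 24, UGT71B1, UGT71C1 and UGT76E11 were called in the opposite direction without auxin. The calls of UGT71B1 and UGT76E11 with auxin were lost in some alternative fits. UGT71B5, UGT71C4, UGT76B1, UGT76C2, UGT76E12, UGT80B1, UGT84A4 and UGT88A1 were not called without auxin. With the low-bioC arrays left out, 22 of the 50 were called, 14 higher and 8 lower, beside 26.7% of all probe sets (14.0% higher and 12.7% lower). A difference of 2-fold or more was called in 7 of the 50 UGTs, beside 1587 of all 22746 probe sets (6.98%). The groups did not overlap in 28 of the 50, beside 9255 of all 22746 probe sets (40.7%). The median absolute log2 fold change was 0.30 for the UGTs and 0.15 for all probe sets. UGT85A2 (AT1G22360) was the largest rise, with 0.50, 0.49 and 1.10 in mature against −1.02, −0.98 and −0.81 in young hypocotyls with auxin (3.09-fold, 1.63 ± 0.15, limma adjusted p = 2.4e-06). It was 3.14-fold higher without auxin too (1.65 ± 0.15), so its age difference was nearly the same in both states (difference −0.02 ± 0.22, limma adjusted p = 0.951).

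UGT73C7 was 2.72-fold higher in mature than in young hypocotyls with auxin, with 1.16, 1.41 and 1.48 against −0.12, 0.00 and −0.16 (1.44 ± 0.12, limma adjusted p = 8.4e-07). UGT76E12 (AT3G46660) had 0.76, 1.72 and 0.78 against −0.09, 0.07 and 0.02, so that array 2 of the mature auxin group lay well above the rest (2.12-fold, 1.08 ± 0.20). On the lower side, UGT84A4 was 2.47-fold (−1.31 ± 0.15) and UGT71C1 2.30-fold lower (−1.2 ± 0.19) in mature hypocotyls with auxin. UGT71C1 was thus higher in mature hypocotyls without auxin (2.70-fold, 1.43 ± 0.19) and lower with it. The value without auxin was 0.64 ± 0.17 when the 4 arrays of low bioC signal were left out (limma adjusted p = 0.0231).

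Of the 3 measured genes that act on auxin, 1 fell with auxin at both ages, beside 26.4% and 28.1% of all probe sets called lower in young and mature hypocotyls. UGT74D1 (AT2G31750), which glucosylates the oxidised auxin oxIAA, had 1.70, 2.05 and 1.70 in untreated young hypocotyls and −0.16, −0.11 and −0.32 with auxin. In mature hypocotyls it had 0.55, 0.11 and 0.40 without and −1.27, −1.12 and −0.93 with auxin. It was 4.04-fold lower with auxin in young (−2.01 ± 0.13, limma adjusted p = 8.8e-09) and 2.75-fold lower in mature hypocotyls (−1.46 ± 0.13). It was also lower with age, by 2.77-fold without auxin (−1.47 ± 0.13). The difference of its response between ages (0.55 ± 0.19, limma adjusted p = 0.0338) lost its call in 8 of 16 alternative fits, among them those without young auxin array 1 or 3, without mature auxin array 2 or 3 and without array 2 of either untreated group.

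UGT84B1 (AT2G23260) and its neighbour UGT84B2 (AT2G23250), of which the first is an indole-3-acetic acid glucosyltransferase, moved in no comparison. UGT84B1 stayed between −0.13 and 0.20 and UGT84B2 between −0.13 and 0.22 on all 12 arrays. Their changes with auxin in young hypocotyls were 0.00 ± 0.10 and 0.10 ± 0.08 (limma adjusted p = 0.996 and 0.32). Whether these probe sets gave a signal above background cannot be read from centred values.

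The cytokinin N-glucosyltransferase genes UGT76C1 (AT5G05870) and UGT76C2 (AT5G05860) are neighbours and went in opposite directions with auxin. UGT76C1 had 0.54, 0.45 and 0.63 in untreated young, 0.07, 0.06 and −0.14 in young with auxin, −0.06, 0.08 and −0.06 in mature and −0.61, −0.57 and −0.24 in mature hypocotyls with auxin. It was lower with auxin by 1.45-fold in young (−0.54 ± 0.11, limma adjusted p = 4.8e-04) and 1.37-fold in mature hypocotyls (−0.46 ± 0.11, limma adjusted p = 0.0018), the second at −0.41 ± 0.17 with the low-bioC arrays left out (limma adjusted p = 0.0684). UGT76C2 had −0.28, −0.08 and −0.22 in untreated young hypocotyls and 0.18, 0.05 and −0.05 with auxin. It had −0.08, 0.08 and −0.15 in untreated mature hypocotyls and 0.55, 0.57 and 0.62 with auxin, 1.55-fold higher (0.63 ± 0.09, limma adjusted p = 2.6e-05). Its young rise was smaller (0.26 ± 0.09, limma adjusted p = 0.0232) and was lost without array 1 or 3 of the untreated or array 1 of the auxin group, or with the low-bioC arrays left out (limma adjusted p between 0.0611 and 0.104).

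Of 3 measured genes that act on abscisic acid, 1 fell with auxin in young and 2 in mature hypocotyls, against the same background of 26.4% and 28.1%. UGT71C5 (AT1G07240) had 0.12, 0.23 and 0.41 in young, −0.47, −0.55 and −0.82 in young with auxin, 0.86, 0.78 and 0.84 in mature and −0.14, −0.12 and −0.18 in mature hypocotyls with auxin. It fell 1.83-fold (−0.87 ± 0.10) and 1.96-fold (−0.97 ± 0.10) with auxin. UGT71B6 (AT3G21780) lay between −0.38 and 0.02 in 3 groups and at 0.57, 0.47 and 0.46 in untreated mature hypocotyls, from which auxin lowered it 1.52-fold (−0.61 ± 0.12, limma adjusted p = 4.2e-04). UGT71B8, between −0.29 and 0.21 on all arrays, was not called.

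Of 4 measured genes that act on salicylate, its methyl ester or other defence compounds, 3 rose with auxin in young and 3 in mature hypocotyls, and none fell. Of all probe sets 32.7% and 31.8% were called higher, and 1 of the 3 calls at each age was lost in some alternative fits. UGT76B1 and UGT71C3 rose at both ages, as given above for young hypocotyls. In mature ones UGT76B1 went from −0.60, −0.90 and −1.19 to 0.99, 0.96 and 0.60 (3.36-fold, 1.75 ± 0.22, limma adjusted p = 8e-06). UGT71C3 went from −0.93, −0.69 and −1.06 to 0.95, 0.69 and 1.51 (3.84-fold, 1.94 ± 0.17, limma adjusted p = 1.7e-07). Neither showed overlap between groups. The rise of UGT74F1 (AT2G43840), a salicylate glucosyltransferase gene, in mature hypocotyls (0.26 ± 0.10, limma adjusted p = 0.0441) was lost in 12 of 16 alternative fits, and its values went from −0.43, −0.25 and −0.25 to 0.03, −0.16 and −0.01. It was the lowest in untreated mature hypocotyls, though by little. The rise of UGT76D1 (AT2G26480), which acts on dihydroxybenzoic acids, in young ones (0.40 ± 0.14, limma adjusted p = 0.0228) was lost in 3, which left out array 1 of the untreated group, array 1 of the auxin group or the 4 arrays of low bioC signal (0.36, 0.26 and 0.36, limma adjusted p = 0.0728, 0.12 and 0.224).

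Of 4 measured genes that act on flavonoids, 1 fell with auxin in young and 2 in mature hypocotyls, and none rose, beside 26.4% and 28.1% of all probe sets called lower. UGT78D2 (AT5G17050), the flavonol and anthocyanidin 3-O-glucosyltransferase gene, went from 0.41, 0.69 and 0.48 to −0.46, −0.38 and −0.59 with auxin in young hypocotyls (2.01-fold lower, −1.0 ± 0.09, limma adjusted p = 1.9e-07). In mature ones it went from 0.35, 0.25 and 0.23 to −0.26, −0.28 and −0.23 (1.45-fold lower, −0.53 ± 0.09). UGT78D1, a flavonol 3-O-rhamnosyltransferase gene, fell in mature hypocotyls (−0.85 ± 0.22, limma adjusted p = 0.00456). With the low-bioC arrays left out the change was as large, at −0.85 ± 0.34, and not called (limma adjusted p = 0.0681). Its mature auxin arrays spread widely, at −1.11, −0.39 and −0.17. In untreated mature hypocotyls it had 0.28, 0.31 and 0.30. UGT78D3, a flavonol arabinosyltransferase gene, and UGT79B1, an anthocyanin xylosyltransferase gene, were called in no comparison. DFR, the only gene measured of 20 listed for phenylpropanoid and flavonoid synthesis, was not called with auxin in young or mature hypocotyls (0.11 ± 0.16 and 0.28 ± 0.16, limma adjusted p = 0.615 and 0.162).

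The sterol glucosyltransferase genes UGT80A2 (AT3G07020) and UGT80B1 (AT1G43620) parted under auxin in young hypocotyls. UGT80A2 fell from 0.57, 0.43 and 0.39 to −0.10, −0.03 and −0.23 (−0.58 ± 0.09, limma adjusted p = 3.3e-05). UGT80B1 rose from −0.05, 0.00 and 0.25 to 0.73, 0.45 and 0.32 (0.43 ± 0.11, limma adjusted p = 0.00412), or 0.25 ± 0.17 with the low-bioC arrays left out (limma adjusted p = 0.26). USP, which makes UDP-sugars and was the only gene measured of 24 listed for UDP-sugar supply, rose with auxin by 0.42 ± 0.10 in young and 0.70 ± 0.10 in mature hypocotyls (limma adjusted p = 0.00254 and 3.1e-05).

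Many UGT genes lie side by side on the chromosomes. Differences between neighbours were not tested, and their values are set side by side here. By the order of protein-coding genes in the RefSeq annotation of assembly TAIR10.1, 24 of the 50 genes form 10 groups of 2 to 4 direct neighbours. UGT71C1 and UGT71C2 (AT2G29740) on chromosome 2 went in opposite directions with auxin in young hypocotyls. UGT71C2 had 0.16, 0.34 and 0.53 untreated and −0.95, −0.88 and −1.24 with auxin (2.59-fold lower, −1.37 ± 0.12), while UGT71C1 rose. On chromosome 1, UGT71C3 rose and its neighbours UGT71C4 (−0.35 ± 0.08) and UGT71C5 fell with auxin in young hypocotyls, and the same held in mature ones (UGT71C4, −0.50 ± 0.08).

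Of the 3 neighbours on chromosome 4 that make hydroxycinnamate glucose esters, UGT84A4 rose 6.16-fold with auxin in young hypocotyls. UGT84A1 (0.00 ± 0.09) and UGT84A3 (0.19 ± 0.12) were not called there (limma adjusted p = 0.973 and 0.177). UGT84A3 (AT4G15490) instead differed with age, at −0.37, −0.56 and −0.37 in young and 0.36, 0.27 and 0.14 in mature hypocotyls without auxin (1.61-fold, 0.69 ± 0.12, limma adjusted p = 2e-04), or 0.51 ± 0.21 with the low-bioC arrays left out (limma adjusted p = 0.131). UGT84A1 (AT4G15480) stayed between −0.31 and 0.15, and its mature rise (0.28 ± 0.09, limma adjusted p = 0.0105) was lost without array 2 of the untreated group and in the fit of 8 arrays, at 0.24 in each (limma adjusted p = 0.0505 and 0.183). In the group of 4 on chromosome 1, UGT85A2 differed with age, UGT85A5 fell with auxin at both ages (−1.18 ± 0.13 and −1.22 ± 0.13), and UGT85A3 and UGT85A7 were called in no comparison. UGT73B4 and UGT73B5 on chromosome 2 had like differences with age (2.14 ± 0.17 and 2.30 ± 0.15) and unlike in the young auxin response (2.38 ± 0.17 and 0.43 ± 0.15). UGT76E1 was called nowhere beside UGT76E2, which was lower with age. All 50 probe sets carry the plain suffix that the maker gives to probes matching a single transcript.

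A few other UGTs changed by smaller amounts. UGT76E11 (AT3G46670) rose with auxin in mature hypocotyls from −0.57, −0.57 and −0.30 to 0.16, 0.40 and 0.30 (0.76 ± 0.10, limma adjusted p = 1.5e-05). UGT76E11 and UGT76E12 are each overlapped by an annotated long non-coding RNA, whose part in their signal was not tested. UGT71B5 (AT4G15280) rose in mature hypocotyls too, from 0.07, −0.01 and 0.06 to 0.37, 0.43 and 0.56 (0.41 ± 0.09, limma adjusted p = 0.00121). UGT85A4 (AT1G78270) fell with auxin in young (−0.68 ± 0.13) and mature hypocotyls (−0.54 ± 0.13), the second at −0.32 with the low-bioC arrays left out (limma adjusted p = 0.0527). UGT76E2 fell with auxin in young hypocotyls (−0.42 ± 0.14, limma adjusted p = 0.0195), a call lost without untreated array 1 or auxin array 2 or 3 and in the fit of 8 arrays (−0.32, limma adjusted p = 0.163). UGT79B6, a flavonol glycosyltransferase gene active in pollen, stayed between −0.17 and 0.28.

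**Figure D4:**
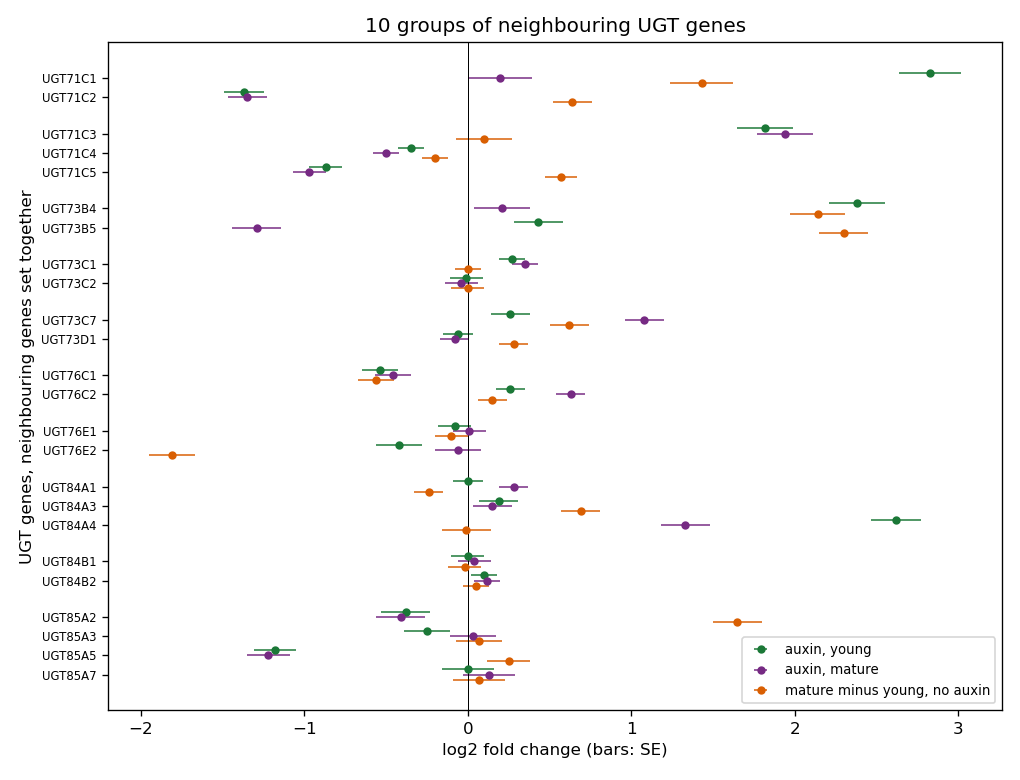
The 24 UGT genes that lie next to another UGT gene are set in 10 groups, with log2 fold changes on the x axis and bars for the SE. Green marks auxin in young, purple auxin in mature hypocotyls and orange mature minus young without auxin, and UGT71C1 and UGT71C2 lie on opposite sides of 0 for auxin in young hypocotyls.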

How the data were processed

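RNA of 12 hypocotyl samples was hybridised to Affymetrix arrays. The authors deposited RMA values, per the submitters' processing notes, which name RMA but give no version or log base. The deposited values were read here as log2. The median of every probe set over the arrays is 0, as the values show. All 12 columns belong to a known sample. The arrays' number, not depth, limits precision, and p-values measure the spread between arrays labelled as biological replicates.

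Genes were named through the array annotation (13513 probe sets with 1 gene, 503 with several) and RefSeq gene names. limma (version 3.58.1, R 4.3.3) fitted 4 group means to 22746 non-control probe sets, with 64 controls left out and 8 residual degrees of freedom, p two-sided and adjusted by Benjamini-Hochberg over all of them. The fit was run on simulated independent noise with few probe sets changed, all in the young auxin group. That setting is unlike these data, so it cannot speak for deviations that arrays share. The members, gene lists and alternatives were chosen with earlier results of these data known. Genes given array by array are mostly the 3 largest called rises and falls per comparison and genes with a listed acceptor. Some of these were given only for the groups compared or as a range. UGT71C2 beside its neighbour, UGT71B5 and UGT76E11 were also described. Same-numbered arrays of both auxin groups deviated together (correlations 0.250, 0.158 and 0.122). All other pairs of groups had at least 1 correlation under 0.1. Pairing by number was therefore kept as an alternative fit.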

Additional observations from a re-analysis of the deposited data

Results flagged for a closer look

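The auxin response differed between ages, by the interaction term of the limma fit, in the 19 UGTs given here as mature minus young log2 fold change. It was higher in mature hypocotyls for UGT71B1 (1.37), UGT88A1 (0.94), UGT76E12 (0.92), UGT73C7 (0.82), UGT76E11 (0.80), UGT74D1 (0.55), UGT78D2 (0.47) and UGT76C2 (0.37). It was lower for UGT71C1 (−2.63), UGT72E2 (−2.30), UGT72B1 (−2.26), UGT73B4 (−2.17), UGT87A2 (−1.84), UGT73B5 (−1.71), UGT84A4 (−1.30), UGT72B3 (−1.21), UGT76B1 (−1.09), UGT72E1 (−0.75) and UGT71B6 (−0.61). In UGT76E12 the difference was 0.61 without array 2 of the mature auxin group. With the 4 low-bioC arrays left out, 8 of the 19 were no longer called by limma. UGT76B1 moved to −0.22, UGT71B6 to −0.43, UGT72E1 to −0.56, UGT74D1 to 0.39 and UGT76E11 to 0.65, all nearer to 0. UGT78D2 stayed at 0.47, and UGT76C2 (0.44) and UGT76E12 (1.19) moved away from 0. The difference in UGT76C2 (limma adjusted p = 0.0349 with all arrays) also lost its call in other fits. These set array medians equal or left out untreated young array 2, young auxin array 2 or 3, untreated mature array 1 or 3, or any mature auxin array. The limma adjusted p then lay between 0.0508 and 0.0888.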

How the results depend on the processing

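Of 127 called results of single UGTs, 87 kept their call under each of 16 alternative fits, and none of the 127 changed sign under any. A fold change could not move with the replicate number as a block or with a robust estimate of the spread. Nor could it move when an array outside the comparison was left out. These fits cannot test the sign. Leaving out 1 array at a time gave 23 to 30 calls for auxin in young, 27 to 32 for auxin in mature hypocotyls, 22 to 26 for age without auxin, 22 to 24 for age with auxin and 17 to 19 for the difference of the response. Over all 22746 probe sets the same fits called 7036 to 7508 higher and 5613 to 6053 lower for auxin in young hypocotyls. In mature ones the ranges were 6679 to 7331 and 6089 to 6429. They were 4518 to 5228 and 4566 to 5335 for age without auxin, and 2558 to 3333 and 2417 to 3018 with auxin. For the difference of the response they were 3489 to 3950 and 3466 to 3906. Without the 4 arrays of low bioC signal, age without auxin had 14 calls and the difference of the response 12, fits with 8 arrays instead of 12. With a minimum fold of 2, the counts were 16, 14, 10, 7 and 10 in the order above, beside 24.9%, 24.1%, 13.4%, 6.98% and 12.5% of all probe sets. With the replicate number as a block they were 29, 29, 26, 25 and 18. The block ended the calls of UGT74F1 for auxin in mature hypocotyls and of UGT74D1 for the difference of the response, and added UGT71C4 for age without auxin and UGT72B3 for age with auxin. With array medians set equal, 5 calls were lost and none was added, and a robust estimate of the spread changed no call. Signal over background cannot be judged from centred values.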
